A study of Mus musculus with 10 samples.

Results

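Released cells are mouse embryonic stem cells of the line E14tg2a that spent 4 days with etomoxir (ETO) and then 4 more days without it. They were set against untreated Control cells of the same line, given water for 4 days, and all genes of the deposited table were compared. The comparison uses 4 of the 10 libraries of the series, 2 from Released cells and 2 from Control cells. Values of the 2 ETO libraries, made after 4 days with the drug, are given beside them as the state before release. Cells of all 3 groups were grown in 2i/LIF medium with the MEK inhibitor PD0325901 at 1 µM, the GSK3 inhibitor CHIR99021 at 3 µM and the cytokine LIF at 1000 U/ml. The labels give neither the dose of etomoxir nor whether Control cells were also cultured for the further 4 days, so drug exposure with release and longer culture cannot be told apart. The other 4 libraries, from a line with floxed Mof alleles, entered only the filter that chose the genes tested and the estimate of the spread between replicates.

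Etomoxir blocks the CPT1 enzymes of the outer mitochondrial membrane, which join long-chain fatty acids to carnitine so that they can enter mitochondria and be oxidised. In 2i/LIF medium embryonic stem cells are held in a naive ground state, with little ERK signalling and a genome low in DNA methylation. Fatty acid oxidation, glycolysis and sterol synthesis all meet at acetyl-CoA, so their genes are followed here beside those of pluripotency, adhesion and stress. The comparison asks which expression differences from untreated cells were present after the inhibitor had been withdrawn.

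The Released libraries came from an estimated 16778400 and 10168500 reads, and the Control libraries from an estimated 11078400 and 11592000. A gene at 0 may hide up to 3 reads, worth 2.07 and 3.52 normalised counts in the Released libraries and 3.30 and 3.11 in the Control libraries, by counting error alone. The libraries of a group are labelled as biological duplicates, and a p-value here covers no more than the spread among these few samples. The median absolute log2 difference between the replicates was 0.105 in Released, 0.120 in ETO and 0.106 in Control cells. Of the mitochondrial rows, those of mt-Nd6 and of the block with mt-Atp6 are listed at 0 in Released replicate 1 and were left out. In bulk RNA, fewer cells of a type and less RNA per cell cannot be told apart.

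For 6 markers of embryonic stem cells, chosen after their values were seen, Released cells stood at about the level of Control cells. Other pluripotency genes did differ: of the 30 in the naive list described below, 4 were called higher and 3 lower. Pou5f1, the gene of OCT4, measured 9164 and 9032 normalised counts in Released cells, 4615 and 5032 in ETO cells and 8266 and 8482 in Control cells. Nanog, another core pluripotency factor, measured 8980.4 and 9148 in Released cells, 4003 and 3843 in ETO cells and 9050.4 and 9536 in Control cells. Both genes were lower in the ETO libraries than in any Released or Control library. The log2 changes of Released over Control were 0.12 for Pou5f1 (adjusted p = 0.207), -0.036 for Nanog (adjusted p = 0.72), -0.12 for Sox2 (adjusted p = 0.189), -0.0053 for Esrrb (adjusted p = 0.965), 0.065 for Klf4 (adjusted p = 0.606) and 0.16 for Zfp42 (adjusted p = 0.0732). None of these 6 genes passed the test, although an adjusted p above the threshold does not show that the levels were equal. All adjusted p-values are from limma with Benjamini-Hochberg adjustment over the 16056 genes tested, and a gene was called at an adjusted p under 0.05. Where counts of a gene list at an unadjusted p under 0.05 are given, no share of all genes at that threshold stands beside them.

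Residual differences were numerous and mostly small. Of 49624 genes or rows of the table, 16056 passed the filter on low values, and of these 2012 (12.5%) were called between Released and Control cells, 1128 (7.03%) higher and 884 (5.51%) lower in Released cells. Of these, 431 were higher and 77 lower with an absolute log2 change of at least 1. The median log2 change of all genes tested was 0.0063. Both Released libraries lay above both Control libraries for 5060 genes (31.5%) and below both for 4848 (30.2%). Scaling to the total of non-mitochondrial values moved the split to 1378 higher and 676 lower. The number of calls was 3713 when the spread was estimated from the 6 E14tg2a libraries alone. It was 261 with the deposited FPKM values, for which the pseudocount and the filter also differed. Of the called genes, 5 had means under the floor of 3 reads in both groups. With Released replicate 1 or 2 left out it was 827 or 773, and with Control replicate 1 or 2 left out it was 884 or 900.

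**Figure D1:**
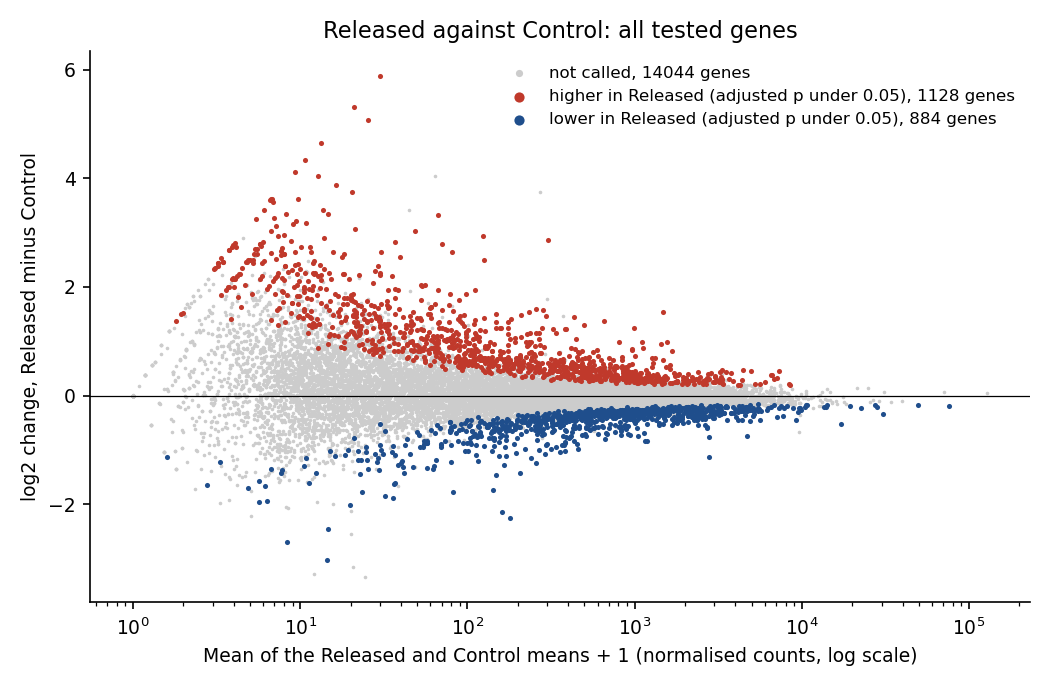
Log2 change of Released over Control for each tested gene (vertical axis) against the mean level of both groups plus 1, in normalised counts on a log scale (horizontal axis). Red points are the 1128 genes higher in Released cells, blue points the 884 lower ones and grey points the genes not called; rises of more than 1 log2 unit outnumber falls of that size, 431 against 77.

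In the plot of all genes the larger changes lie toward weakly expressed genes. On the scale of log2(value + 1) the changes of weakly expressed genes are understated. The 12 largest rises and the 12 largest falls were taken among called genes with a mean of at least 50 normalised counts in the higher group, without predicted genes and without rows that merge several genes. With the FPKM values 7 of the 12 rises (Igf2, Ptgs2, Wdr72, Dusp8, Asz1, Nfix and Adcy2) and 5 of the 12 falls (Mbtps2, Wdr86, Ephb1, Igfals and Bnip3) lost their call.

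The largest rise was that of Igf2, an imprinted fetal growth factor expressed from the paternal allele. Igf2 measured 84.8 and 86.7 normalised counts in Released cells, 131 and 151 in ETO cells and 11.0 and 8.30 in Control cells. Both Released libraries were far above both Control libraries and below both ETO libraries. The log2 change over Control was 3.04 ± 0.29 (SE; adjusted p = 1.14e-05), and that over ETO -0.71 (adjusted p = 0.049). The call over ETO was lost with a pseudocount of 0.5, without the filter on low values, with the FPKM values and without either Released replicate. In the Released against ETO comparison, whose Released libraries are the same, 57.7% of all genes were called. Beside Igf2 on chromosome 7 lies H19, a maternally expressed long non-coding RNA that shares enhancers with it. The row of H19 and Mir675 measured 122 and 117 in Released cells, 101 and 109 in ETO cells and 18.7 and 6.23 in Control cells, with a log2 change over Control of 3.33 ± 0.43 (adjusted p = 0.000151). For this row the Released and ETO libraries were close, with a log2 difference of 0.19 (adjusted p = 0.731). The row of H19 also lost its call with the FPKM values.

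Several of the genes with the largest rises were much higher still with the drug. Pmaip1, which encodes the pro-apoptotic BH3-only protein NOXA, measured 222 and 216 normalised counts in Released cells, 733 and 719 in ETO cells and 33.0 and 22.8 in Control cells. Gpnmb, a glycoprotein of lysosomes and melanosomes, measured 551 and 513 in Released cells, 11752 and 11775 in ETO cells and 69.3 and 75.8 in Control cells. Ptgs2, the inducible enzyme of prostaglandin synthesis, measured 68.2 and 58.6 in Released cells, 794 and 871 in ETO cells and 5.50 and 11.4 in Control cells. For these 3 genes the Released libraries lay between those of ETO and Control without overlap. Their log2 changes over Control were 2.95 ± 0.15 for Pmaip1 (adjusted p = 2.62e-08), 2.86 ± 0.093 for Gpnmb (adjusted p = 9.11e-11) and 2.84 ± 0.33 for Ptgs2 (adjusted p = 6.95e-05). The same order of groups held for Nectin4, a cell adhesion molecule, for Dusp8, a phosphatase of stress-activated kinases, and for Cxcl16, a membrane-bound chemokine. Nectin4 measured 125 and 119.5 in Released cells, 496 and 492 in ETO cells and 14.3 and 19.7 in Control cells, a log2 change over Control of 2.79 ± 0.19. Dusp8 and Cxcl16 rose by 2.56 ± 0.35 and 2.04 ± 0.17 log2 units over Control. Wdr72, which encodes a WD-repeat protein, measured 48.2 and 55.1 in Released cells, 107 and 107 in ETO cells and 6.60 and 8.30 in Control cells, a log2 change of 2.64 ± 0.41.

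For a few of the largest rises no difference from the drug-treated cells was called. Asz1, a germ cell gene of the piRNA pathway, measured 57.8 and 53.9 normalised counts in Released cells, 61.3 and 77.2 in ETO cells and 17.6 and 7.26 in Control cells. Nfix, a transcription factor of the nuclear factor I family, measured 79.2 and 86.6 in Released cells, 65.9 and 72.8 in ETO cells and 26.2 and 14.5 in Control cells. Adcy2, an adenylyl cyclase, measured 84.0 and 85.5 in Released cells, 75.1 and 69.7 in ETO cells and 19.8 and 20.8 in Control cells. In all 3 the Released libraries lay above both Control libraries; those of Asz1 were below both ETO libraries, and those of Nfix and Adcy2 above them. The log2 changes over Control were 2.20 for Asz1 (adjusted p = 0.00333), 2.03 for Nfix (adjusted p = 0.00105) and 2.01 for Adcy2 (adjusted p = 0.00147), and those over ETO were -0.30, 0.25 and 0.23, none of them called. The call of Asz1 was lost without Control replicate 2.

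Some genes near 0 in Control cells were expressed after release, among them Alox5 and Tmprss2, chosen after their values were seen. Alox5, the 5-lipoxygenase of leukotriene synthesis, measured 53.7 and 42.2 normalised counts in Released cells, 86.0 and 95.5 in ETO cells and 1.10 and 0 in Control cells. Tmprss2, a serine protease of epithelial membranes, measured 28.9 and 19.9 in Released cells, 119.6 and 127 in ETO cells and 0 and 0 in Control cells. Against the floor of 3 reads per Control library, Tmprss2 was at least 7.61-fold higher in Released cells. In both genes the Released libraries stood above Control and below ETO.

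**Figure D2:**
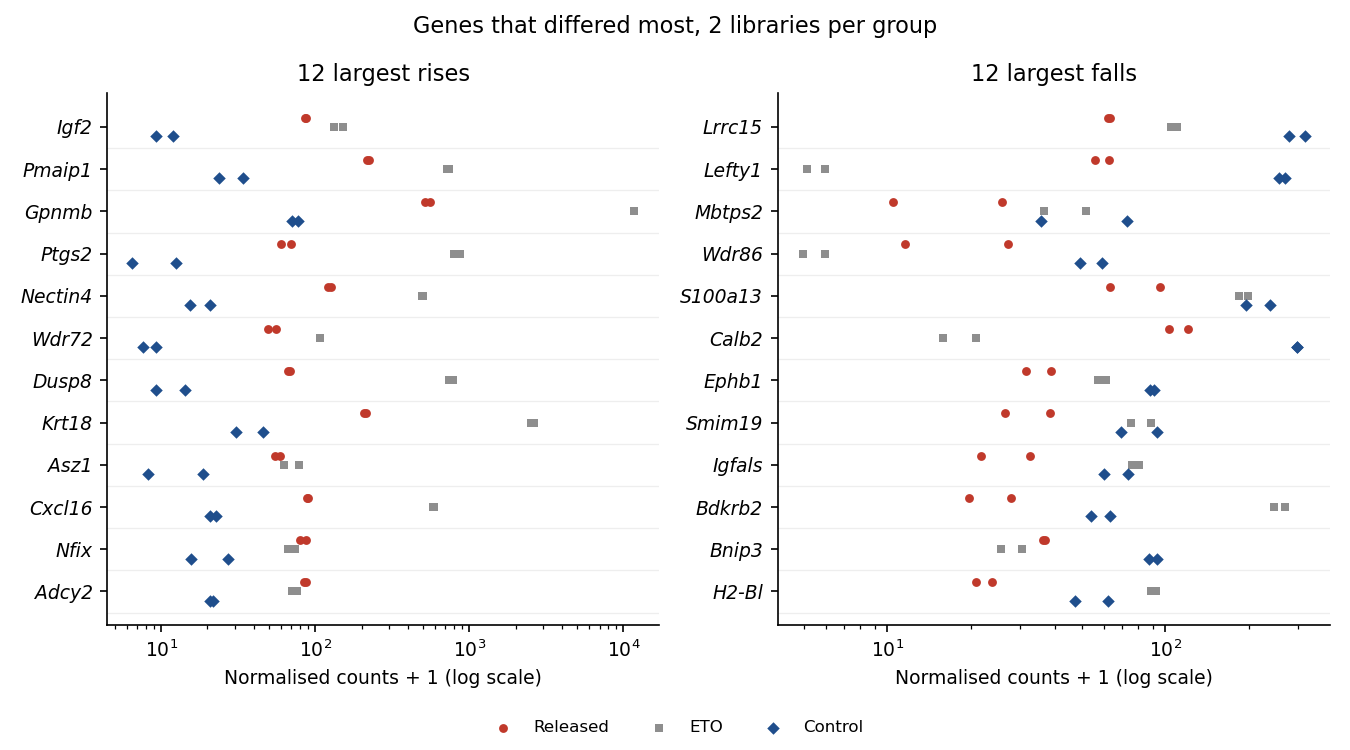
Normalised counts plus 1 (log scale) of the 12 genes with the largest rise (left panel) and the 12 with the largest fall (right panel), with 1 point per library: red circles for Released, grey squares for ETO and blue diamonds for Control. Each Released pair lies beyond its Control pair, as the choice of genes required, and for Gpnmb the ETO libraries, at 11752 and 11775, stand far above the Released ones, at 551 and 513.

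In the plot of the genes that differed most, the ETO libraries of the falling genes lie on either side of the Released and Control libraries, so a fall after release did not go with 1 direction under the drug. The largest fall was of Lrrc15, a leucine-rich repeat membrane protein, with 61.3 and 62.1 normalised counts in Released cells, 104 and 109.6 in ETO cells and 278 and 317 in Control cells. Its log2 change over Control was -2.25 ± 0.12 (adjusted p = 4.63e-08), and the Released libraries were also below ETO. Lefty1, a secreted inhibitor of Nodal signalling, measured 62.0 and 55.1 in Released cells, 4.94 and 4.15 in ETO cells and 269.7 and 255 in Control cells, a log2 change over Control of -2.15 ± 0.27 (adjusted p = 0.000128). Calb2, the calcium-binding protein calretinin, measured 102 and 119.5 in Released cells, 14.8 and 19.9 in ETO cells and 297 and 297 in Control cells, a log2 change over Control of -1.42 ± 0.16 (adjusted p = 3.89e-05). Lefty1 and Calb2 were lowest with the drug, and their Released libraries stood between those of ETO and Control. Bdkrb2, the bradykinin B2 receptor, was highest with the drug, with 18.6 and 27.0 in Released cells, 245 and 268 in ETO cells and 52.8 and 62.3 in Control cells, and it fell by 1.32 log2 units below Control. H2-Bl, of the non-classical MHC class I family, showed the same order, with 22.7 and 19.9 in Released cells, 88.0 and 91.3 in ETO cells and 46.2 and 61.2 in Control cells, and fell by 1.28 log2 units, although reads may be shared with related genes of the family.

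For other genes with a large fall, the Released cells stood apart from both ETO and Control cells. S100a13, of the S100 family of calcium-binding proteins, measured 95.0 and 62.1 normalised counts in Released cells, 183 and 197 in ETO cells and 194 and 237 in Control cells. Smim19, a small membrane protein, measured 25.5 and 37.5 in Released cells, 74.5 and 88.0 in ETO cells and 92.5 and 68.5 in Control cells. Igfals, a subunit of circulating IGF complexes, measured 20.7 and 31.6 in Released cells, 75.1 and 79.7 in ETO cells and 72.7 and 59.2 in Control cells. The Released libraries of these 3 genes were below every ETO and Control library. Over Control the log2 changes were -1.47 ± 0.16, -1.34 ± 0.22 and -1.32 ± 0.22, with adjusted p of 3.56e-05 for S100a13, 0.000902 for Smim19 and 0.00123 for Igfals. Over ETO they were -1.29, -1.36 and -1.56, all called. The falls of Mbtps2, Wdr86 and Ephb1 were less certain, since each lost its call when 1 of several libraries was left out. Mbtps2, the site-2 protease that activates SREBP transcription factors, measured 9.47 and 24.9 in Released cells and 34.9 and 71.9 in Control cells, a log2 change of -1.63 ± 0.46 (adjusted p = 0.0334), and was not called without Control replicate 2 or without Released replicate 1.

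Among genes with the smallest p-values, moderate changes came with close replicates. Gsto1, a glutathione transferase of the omega class, measured 2069 and 2069 normalised counts in Released cells, 3550.5 and 3527 in ETO cells and 1039 and 1050.3 in Control cells, a log2 change over Control of 0.99 ± 0.061 (adjusted p = 2.31e-07). Serpine2, an inhibitor of serine proteases, measured 588 and 676 in Released cells, 1423 and 1465 in ETO cells and 234 and 228 in Control cells, a log2 change of 1.44 ± 0.093. P2rx7, an ion channel gated by ATP, measured 1409.6 and 1376 in Released cells, 1936 and 2117 in ETO cells and 598 and 574 in Control cells, a log2 change of 1.25 ± 0.09. For these 3 genes the Released libraries again lay between ETO and Control. Bhlhe41, a transcriptional repressor of the circadian clock, measured 45.1 and 46.2 in Released cells, 885 and 878 in ETO cells and 8.81 and 8.30 in Control cells, a log2 change of 2.29 ± 0.16. Nptx2, a secreted pentraxin, was higher in Released cells (715 and 699.5) than in either ETO (413 and 410.2) or Control cells (286 and 289.6), with a log2 change over Control of 1.29 ± 0.093. Lima1, which encodes an actin-binding protein, measured 3569 and 3501 in Released cells, 2753 and 2619 in ETO cells and 5825 and 5981 in Control cells, a log2 change of -0.74 ± 0.054. All 6 genes kept their call in every alternative run.

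Simple epithelial keratins, the intermediate filaments of epithelial and trophectoderm cells, rose in Released cells. Of 6 listed, 5 were tested and 4 were called higher (Krt18, Krt8, Krt7 and the row of Krt19), with none lower (also at an unadjusted p under 0.05). Krt18 measured 214 and 207 normalised counts in Released cells, 2501 and 2618 in ETO cells and 29.7 and 44.6 in Control cells. Krt8, its filament partner, measured 578 and 509.7 in Released cells, 2116 and 2334 in ETO cells and 238 and 223 in Control cells. In both, Released libraries lay above Control and far below ETO. Their log2 changes over Control were 2.50 ± 0.17 (adjusted p = 3.18e-07) for Krt18 and 1.23 ± 0.12 (adjusted p = 1.17e-05) for Krt8. The row of Krt19 lost its call when any 1 of the 4 libraries was left out. The median log2 change of the tested keratins was 1.03, against 0.0063 over all tested genes. Of the tested keratins, 80% were called higher, against 7.03% of all genes.

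Genes of cell adhesion and matrix rose in part. Of 30 listed, 29 were tested, with 11 higher (37.9%, against 7.03% of all genes) and 2 lower (6.90%, against 5.51%). The lower ones were Lamb1 and the row of Spp1, and the list had a median log2 change of 0.22. Itga3, a laminin receptor subunit, measured 341 and 348 normalised counts in Released cells, 437 and 492 in ETO cells and 127 and 110.0 in Control cells, a log2 change over Control of 1.54 ± 0.11 (adjusted p = 7.09e-07). Itgb4, the integrin subunit of hemidesmosomes, measured 269 and 243 in Released cells, 1001 and 1047 in ETO cells and 131 and 125 in Control cells, a log2 change of 0.99 ± 0.11 (adjusted p = 4.76e-05). Col4a1, a chain of basement membrane collagen, measured 306 and 311 in Released cells, 398 and 360.3 in ETO cells and 105 and 115 in Control cells, a log2 change of 1.48 ± 0.18 (adjusted p = 9.85e-05). In all 3 the Released libraries were above both Control libraries, and for Col4a1 they were close to ETO. Cdh1, the E-cadherin of naive cells, was not called, at 9152 and 9382 in Released cells and 9693 and 9710.2 in Control cells. The 11 rises became 8 without Released replicate 1, 7 without Released replicate 2, 10 without Control replicate 1 and 6 without Control replicate 2, and 1 with the FPKM values.

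Part of the listed targets of p53 rose. Of 30 listed and tested, 12 were higher and 1 lower (Ccnd1, which drives entry into the cell cycle), a share of 40% higher against 7.03% of all genes, with a median log2 change of 0.19. Plk2, a kinase induced by p53, measured 2034 and 2236 normalised counts in Released cells, 5681 and 5590.3 in ETO cells and 1219 and 1188 in Control cells. Perp, a p53 target of desmosomes and cell death, measured 523 and 552 in Released cells, 1695 and 1818 in ETO cells and 222 and 238 in Control cells. Btg2, an antiproliferative gene, measured 1574 and 1577 in Released cells, 3065 and 3173 in ETO cells and 979 and 960.0 in Control cells. All 3 genes, like Pmaip1, had Released libraries between those of ETO and Control. Over Control, Plk2 rose by 0.83 ± 0.067, Perp by 1.22 ± 0.12 and Btg2 by 0.70 ± 0.061 log2 units. Mdm2, the ubiquitin ligase that limits p53, rose by 0.40 ± 0.058 log2 units (adjusted p = 0.000401), while Cdkn1a, the p21 inhibitor of cyclin-dependent kinases, was not called at 3744 and 3729.8 in Released cells, 5342 and 5569 in ETO cells and 3416 and 3304 in Control cells (adjusted p = 0.179). Trp53 itself had a log2 change of 0.024 (adjusted p = 0.872). Without Released replicate 1 the 12 rises became 6, without Released replicate 2 or Control replicate 2 they became 7, without Control replicate 1 they became 10, and with the FPKM values 5.

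Early response genes of growth factor and stress signalling showed a smaller set of rises. Of 20 listed and tested, 6 were higher (30%, against 7.03% of all genes) and none lower. At an unadjusted p under 0.05 there were 9 and 0, and the median log2 change was 0.33. The log2 changes ranged from -1.67 to 3.41, with 18 of the 20 above 0. Jun, a subunit of the AP-1 transcription factor, measured 119 and 154 normalised counts in Released cells, 1015 and 960.5 in ETO cells and 33.0 and 46.6 in Control cells, a log2 change over Control of 1.76 ± 0.17 (adjusted p = 9.05e-06). Fosl1, a partner of Jun, measured 24.1 and 22.3 in Released cells, 74.1 and 61.4 in ETO cells and 0 and 4.15 in Control cells, where 1 library is listed at 0. Jun and Fosl1 stood between ETO and Control without overlap. Etv4, of the same list, measured 977 and 1010 in Released cells, 126 and 115 in ETO cells and 682 and 677 in Control cells. It was lowest with the drug and above Control after release, with a log2 change over Control of 0.55 ± 0.10 (adjusted p = 0.0023). Atf3, a stress-induced transcription factor, is listed with the amino acid response genes and not here. It measured 86.8 and 90.2 in Released cells, 1299 and 1342 in ETO cells and 31.9 and 24.9 in Control cells. Its log2 change over Control was 1.62 ± 0.16 (adjusted p = 1.17e-05). Fos and Egr1, which respond to ERK within minutes, were not called, with log2 changes of 0.35 (adjusted p = 0.417) and 0.14 (adjusted p = 0.878). The 6 rises became 3 without Released replicate 1 and 4 without any other library, and 1 with the FPKM values.

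Part of the genes of sterol synthesis fell. Of 22 listed genes of cholesterol synthesis and transport, 21 were tested, of which 7 were lower and none higher (11 and 0 at an unadjusted p under 0.05), a share of 33.3% lower against 5.51% of all genes, and the median log2 change was -0.21. Insig1, an inhibitor of SREBP processing that is itself a SREBP target, measured 1461 and 1506 normalised counts in Released cells, 2833 and 2777 in ETO cells and 2153 and 2057 in Control cells. Fdft1, the squalene synthase, measured 1037 and 987 in Released cells, 1926 and 1942 in ETO cells and 1341 and 1366 in Control cells. Cyp51, the lanosterol demethylase, measured 1946 and 1947 in Released cells, 4314 and 4357 in ETO cells and 2563 and 2605 in Control cells. In all 3 the Released libraries were below both Control libraries, and the ETO libraries were the highest. Their log2 changes over Control were -0.50 ± 0.06 for Insig1 (adjusted p = 8.32e-05), -0.42 ± 0.065 for Fdft1 (adjusted p = 0.000665) and -0.41 ± 0.068 for Cyp51 (adjusted p = 0.00112). Hmgcs1, the HMG-CoA synthase, measured 4422 and 4519.5 in Released cells, 8443 and 8594 in ETO cells and 5713 and 5850.4 in Control cells, and fell by 0.37 log2 units (adjusted p = 0.00258). Dhcr7, Stard4 and Msmo1 fell by less than Hmgcs1. Srebf2, the gene of the transcription factor that drives the pathway, was not called, with a log2 change of -0.012 (adjusted p = 0.951). Fdft1 lies in the stretch of chromosome 14 described at the end, and outside it 6 of 20 members were lower. Leaving out 1 library left 5 lower genes, or 4 without Control replicate 2; the 6 E14tg2a libraries alone gave 11, and the FPKM values 2.

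SREBP factors act together with NF-Y, which binds CCAAT boxes, so promoters of 2 sterol genes that fell are shown from the RefSeq table of build GRCm38.p6, which covers the start site and the bases just before it. Capitals mark the SRE core TCACNCCAC and CCAAT, searched on both strands, where CCAAT on the other strand reads ATTGG. Hmgcs1 is shown at chr13:119690101-119690400 on the plus strand, with 1 SRE core and 4 CCAAT boxes in capitals, and Insig1 at chr5:28071162-28071461 on the plus strand, with 1 CCAAT. Where a gene has several windows, the window with the most matches was taken, so the number of matches is not typical of its windows.
Hmgcs1: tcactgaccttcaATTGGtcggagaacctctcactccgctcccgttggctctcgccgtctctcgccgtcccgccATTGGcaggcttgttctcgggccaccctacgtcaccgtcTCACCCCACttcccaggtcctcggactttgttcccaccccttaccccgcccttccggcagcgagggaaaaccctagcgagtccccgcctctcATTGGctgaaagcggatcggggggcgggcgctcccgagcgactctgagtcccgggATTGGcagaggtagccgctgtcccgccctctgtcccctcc
Insig1: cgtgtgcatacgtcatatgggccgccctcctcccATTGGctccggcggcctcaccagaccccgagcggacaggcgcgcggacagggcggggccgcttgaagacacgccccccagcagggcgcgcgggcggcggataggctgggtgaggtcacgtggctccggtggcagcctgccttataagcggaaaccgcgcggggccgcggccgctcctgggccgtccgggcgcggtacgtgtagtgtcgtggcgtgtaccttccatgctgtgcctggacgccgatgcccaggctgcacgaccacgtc
CCAAT was found in the promoters of 16 of the 17 listed sterol genes that the table holds (94.1%) and of 11096 of 27025 genes in all (41.1%), and in all 5 of the called lower ones that it holds. The SRE core was found in 1 of the 17 (5.88%) and in 1.44% of all genes. A match is a description of letters and not evidence of binding.

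Fatty acid synthesis genes fell in part. Of 17 listed and tested, 5 were lower (29.4%, against 5.51% of all genes) and 1 higher (5.88%, against 7.03%). The higher gene was Acacb, an acetyl-CoA carboxylase whose product inhibits CPT1, and the median log2 change of the list was -0.12. The row of Scd2 and Scd3, desaturases that make monounsaturated fatty acids, measured 26763 and 26988 normalised counts in Released cells, 25374 and 26773 in ETO cells and 34339 and 33678 in Control cells. Scd1 measured 6164 and 6154 in Released cells, 8736 and 9162 in ETO cells and 8125 and 8059 in Control cells. Fads1, a desaturase of polyunsaturated fatty acids, measured 1955 and 2007 in Released cells, 3904 and 3948 in ETO cells and 2803 and 2648 in Control cells. Each Released library was below both Control libraries. Over Control, the log2 changes were -0.34, -0.39 and -0.46, with adjusted p of 0.000151 for the row of Scd2 and Scd3, 0.000216 for Scd1 and 0.000259 for Fads1. Because Scd1, Scd2 and Scd3 are close relatives, reads may have been split among them. Fasn, the fatty acid synthase, had a log2 change of -0.078 (adjusted p = 0.686). Leaving out 1 library left 4 lower genes and the FPKM values 3.

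Glycolysis and glucose uptake genes also fell in part. Of 26 listed and tested, 7 were lower (26.9%, against 5.51% of all genes) and none higher. At an unadjusted p under 0.05 there were 12 and 1, and the median log2 change was -0.15. Ldhb, the lactate dehydrogenase subunit that favours pyruvate, measured 1764 and 1711 normalised counts in Released cells, 1464 and 1459.6 in ETO cells and 3836 and 3808 in Control cells. Ldha, the subunit that favours lactate, measured 4116 and 4067 in Released cells, 1031 and 1158 in ETO cells and 5676 and 5631 in Control cells. Slc2a3, the glucose transporter GLUT3, measured 14235 and 14138 in Released cells, 12949.5 and 13441 in ETO cells and 20449.9 and 20123 in Control cells. All 3 genes were lower in Released and ETO cells than in Control cells without overlap; Ldha was several fold higher after release than with the drug, whereas Ldhb and Slc2a3 were slightly above ETO, for Slc2a3 without a call (adjusted p = 0.0522). The log2 changes over Control were -1.14 ± 0.055 for Ldhb (adjusted p = 1.31e-08), -0.47 ± 0.065 for Ldha (adjusted p = 0.000314) and -0.52 ± 0.044 for Slc2a3 (adjusted p = 3.31e-06), and those over ETO were 0.25, 1.90 and 0.10. Gapdh, a standard housekeeping enzyme of the pathway, had a log2 change over Control of 0.012 (adjusted p = 0.967). Leaving out 1 library left 5 or 6 lower genes and the FPKM values 2.

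**Figure D3:**
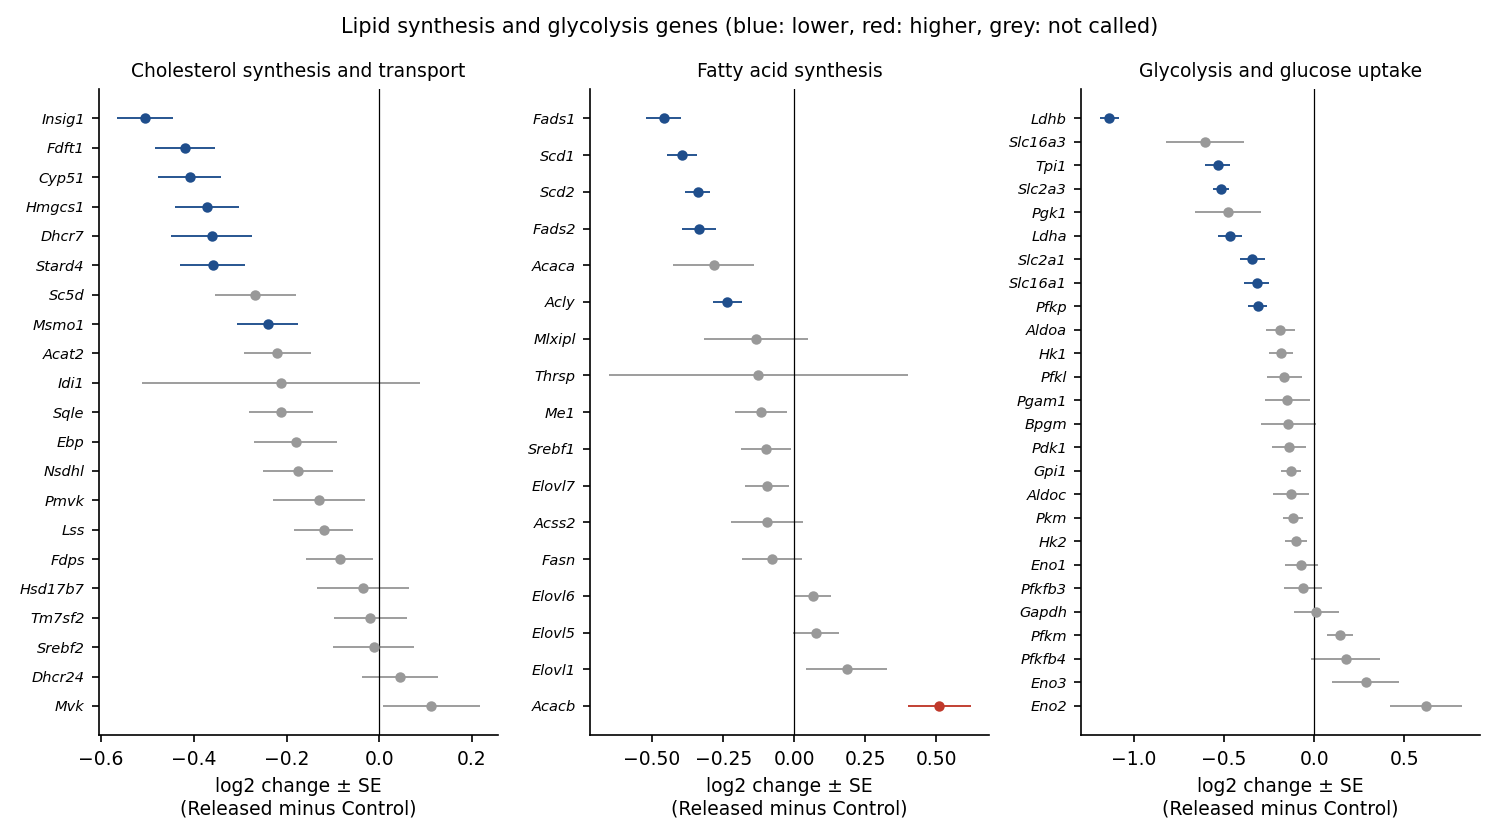
Log2 change of Released minus Control with its SE for each tested gene of cholesterol synthesis and transport, fatty acid synthesis, and glycolysis and glucose uptake. Blue points are genes called lower (7, 5 and 7 in the 3 panels), red ones called higher and grey ones not called; most points lie left of 0, with Ldhb farthest.

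The plot of these 3 lists shows that the genes not called also lay mostly below 0, by small amounts. Targets of hypoxia-inducible factors, which include glycolytic genes, were mixed. Of 19 listed, 18 were tested, 4 lower (22.2%, against 5.51% of all genes) and 2 higher (11.1%, against 7.03%). Their median log2 change was 0.014. Bnip3, a receptor for the removal of mitochondria, measured 36.0 and 35.2 normalised counts in Released cells, 24.6 and 29.4 in ETO cells and 92.6 and 86.1 in Control cells, a log2 change over Control of -1.30 ± 0.21 (adjusted p = 0.000995). P4ha1, a collagen prolyl hydroxylase, fell by 0.60 and Ero1l, an oxidase of protein folding that lies in the chromosome 14 stretch, by 0.59 log2 units. Epas1, which encodes HIF-2α, rose to 777 and 756 in Released cells, against 529.8 and 549 in ETO cells and 445 and 415 in Control cells, a log2 change over Control of 0.83 ± 0.08 (adjusted p = 1.14e-05). Vegfa, the angiogenic growth factor, was far lower after release than with the drug, at 236 and 229.7 in Released cells, 1728 and 1587 in ETO cells and 203 and 218 in Control cells, and was not called over Control (adjusted p = 0.231).

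The core of the hypoxia response element, ACGTG, is marked in capitals in the promoters of Ldha (chr7:46845554-46845853, plus strand) and Bnip3 (chr7:138909457-138909756, minus strand), from the same table and window, since both genes fell and both hold it. It was searched on both strands, where it also reads CACGT, and CACGTG holds it on both strands at once. As for the sterol genes, the window with the most matches was taken where a gene has several. The annotated gene of Ldha starts at 46841475, before the window shown.
Ldha: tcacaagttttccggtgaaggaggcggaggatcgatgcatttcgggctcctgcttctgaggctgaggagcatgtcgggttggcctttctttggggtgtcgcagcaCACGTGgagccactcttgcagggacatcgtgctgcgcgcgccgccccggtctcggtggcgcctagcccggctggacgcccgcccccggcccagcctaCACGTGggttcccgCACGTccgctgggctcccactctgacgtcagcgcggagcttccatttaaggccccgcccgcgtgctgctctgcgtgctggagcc
Bnip3: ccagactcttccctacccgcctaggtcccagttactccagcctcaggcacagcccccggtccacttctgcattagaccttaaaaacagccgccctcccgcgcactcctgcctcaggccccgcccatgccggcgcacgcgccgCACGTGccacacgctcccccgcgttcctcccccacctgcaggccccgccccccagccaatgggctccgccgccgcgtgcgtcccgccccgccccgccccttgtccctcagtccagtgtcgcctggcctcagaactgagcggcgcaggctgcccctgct
ACGTG was found in the promoters of 11 of 15 listed hypoxia genes (73.3%), of 14 of 25 glycolysis genes (56.0%) and of 21.8% of all 27025 genes. All 3 of the hypoxia genes called lower that the table holds had it, and 3 of the 6 glycolysis genes called lower.

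Genes of the CPT1 family and of fatty acid import changed in both directions. Cpt1a, the CPT1 form of most tissues, measured 1898 and 1926 normalised counts in Released cells, 4365 and 4392 in ETO cells and 2297 and 2153 in Control cells. Cpt1c, a form known mainly from neurons, measured 1056 and 1024 in Released cells, 1689.9 and 1755 in ETO cells and 740.4 and 701 in Control cells. The row of Chkb and Cpt1b, which also counts the muscle form, measured 406 and 415 in Released cells, 1821 and 1844 in ETO cells and 396 and 453 in Control cells. All 3 were highest with the drug; after release Cpt1a lay below Control, Cpt1c above it, and the row of Cpt1b overlapped with it. Over Control, the log2 change was -0.22 ± 0.057 for Cpt1a (adjusted p = 0.0221), 0.53 ± 0.077 for Cpt1c (adjusted p = 0.000424) and -0.045 ± 0.082 for the row of Cpt1b (adjusted p = 0.777). The call of Cpt1a was lost without any 1 of the 4 libraries. Cpt2, the partner enzyme on the inner membrane, had a log2 change of 0.29 (adjusted p = 0.0993). Acsl5, an acyl-CoA synthetase, fell to 101 and 83.2 in Released cells, against 279 and 264 in ETO cells and 183 and 193 in Control cells, a log2 change over Control of -1.03 ± 0.12 (adjusted p = 5.58e-05). In all, 13 listed genes of the carnitine shuttle were tested, 2 higher (15.4%, against 7.03% of all genes) and 4 lower (30.8%, against 5.51%), with a median log2 change of -0.050, and 1 or 2 calls in either direction when any 1 library was left out.

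Mitochondrial genes were called in part, and few of the calls held when a library was left out. Of 21 tested of 22 listed enzymes of mitochondrial fatty acid oxidation, 2 were higher (9.52%, against 7.03% of all genes) and 3 lower (14.3%, against 5.51%), and 1 call or none was made in either direction when any 1 library was left out. Of 74 listed nuclear genes of the respiratory chain, 73 were tested. Of these, 1 was called higher (1.37%, against 7.03% of all genes) and 5 lower (6.85%, against 5.51%). At an unadjusted p under 0.05, 2 were higher and 22 lower, without a share of all genes at that threshold for comparison. The median log2 change of the 73 genes was -0.098. The 6 E14tg2a libraries alone called 19 of them lower, and leaving out any 1 library left 2 or fewer. The gene called higher, Cox6a2, passed the filter only through the ETO libraries and had 2.75 and 1.17 in Released cells, 233 and 264 in ETO cells and 0 in both Control libraries, which is within the floor of 3 reads, so no rise is read from it. Limma called none of 19 genes that copy and transcribe mitochondrial DNA, with log2 changes between -0.31 and 0.28; 3 were higher and none lower at an unadjusted p under 0.05, and the 6 E14tg2a libraries alone called 4 of them higher. The 2 tested rows of mitochondrial DNA, that of mt-Cytb and that of mt-Nd1 to mt-Rnr2, were not called, with log2 changes of 0.064 (adjusted p = 0.82) and 0.050 (adjusted p = 0.88). The row of mt-Cytb measured 70223 and 74431 in Released cells, 12206 and 9440.4 in ETO cells and 68544 and 69750.2 in Control cells, so both Released libraries stood far above ETO and just above Control. Pcx, pyruvate carboxylase, which refills the citric acid cycle, rose to 581 and 603 in Released cells, against 506 and 502 in ETO cells and 391 and 352 in Control cells, a log2 change over Control of 0.67 ± 0.12 (adjusted p = 0.00226).

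More falls than rises were called among amino acid and redox stress genes. Of 39 listed targets of ATF4, the factor of the amino acid response, 37 were tested. Of these, 11 were lower (29.7%, against 5.51% of all genes) and 4 higher (10.8%, against 7.03%). The higher ones were Atf3, Ddit3, Gdf15 and Cth, and the median log2 change of the list was -0.030. Pck2, called lower, lies in the chromosome 14 stretch described at the end, and outside it 10 of 36 members were lower. Psat1, an enzyme of serine synthesis, measured 3522 and 3507 normalised counts in Released cells, 3985 and 3975 in ETO cells and 4828 and 4812 in Control cells, a log2 change over Control of -0.46 ± 0.05 (adjusted p = 3.56e-05). Nupr1, a small stress-induced nuclear protein, measured 312 and 265 in Released cells, 892 and 803 in ETO cells and 482 and 496 in Control cells, a log2 change of -0.76 ± 0.088 (adjusted p = 6.40e-05). Stc2, a secreted stanniocalcin, measured 70.2 and 73.8 in Released cells, 651 and 656 in ETO cells and 152 and 118 in Control cells, a log2 change of -0.89 ± 0.12 (adjusted p = 0.000274). Nupr1 and Stc2 were thus highest with the drug and lowest after release, without overlap, and Psat1 was lowest after release. Atf4 itself had a log2 change of -0.12 (adjusted p = 0.159). Of 20 cytosolic tRNA synthetases, 4 were lower (20%, against 5.51% of all genes) and 1 higher (5%, against 7.03%). With the FPKM values none of these 20 genes was called, and the ATF4 list had 2 higher and 1 lower. All 25 listed NRF2 and oxidative stress genes were tested, 7 lower (28%, against 5.51% of all genes) and none higher. At an unadjusted p under 0.05, 11 were lower and 3 higher. Among the genes called lower was Gsr, glutathione reductase, with a log2 change of -0.36 ± 0.053 (adjusted p = 0.000394). Without Released replicate 1 the ATF4 list had 5 lower genes, and the NRF2 list had 1 to 3 lower when any 1 library was left out.

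The naive pluripotency list changed in both directions. Of 30 listed and tested, 4 were higher (13.3%, against 7.03% of all genes) and 3 lower (10%, against 5.51%). The median log2 change was 0.030. Utf1, a chromatin protein of pluripotent cells, measured 956 and 935 normalised counts in Released cells, 93.9 and 103 in ETO cells and 375 and 355 in Control cells. Lin28a, an RNA-binding protein that blocks let-7 maturation, measured 764 and 800.3 in Released cells, 47.4 and 63.9 in ETO cells and 1296 and 1344 in Control cells. Both genes were lowest with the drug; after release Utf1 stood above Control and Lin28a below it. The log2 changes over Control were 1.37 ± 0.15 for Utf1 (adjusted p = 3.56e-05) and -0.75 ± 0.11 for Lin28a (adjusted p = 0.000577). Tbx3 and Zfp57, factors of naive cells and of imprint upkeep, rose by 0.44 ± 0.06 and 0.45 ± 0.069 log2 units. Lin28a, Tbx3 and Zfp57 lost their calls with the FPKM values, while Utf1 kept its call in every alternative run.

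Genes of DNA methylation were among those that differed from both other groups. Dnmt3l, the cofactor of the de novo methyltransferases, measured 2226 and 2143 normalised counts in Released cells, 977 and 1009.6 in ETO cells and 729 and 777 in Control cells, a log2 change over Control of 1.54 ± 0.10 (adjusted p = 2.48e-07) and over ETO of 1.14 (adjusted p = 9.61e-08). Tet2, which oxidises 5-methylcytosine, measured 1651 and 1592 in Released cells, 1005 and 1043 in ETO cells and 996 and 1014 in Control cells, a log2 change over Control of 0.69 ± 0.067 (adjusted p = 1.17e-05). Uhrf2, a ubiquitin ligase that binds modified cytosines, measured 711 and 688 in Released cells, 1027 and 972 in ETO cells and 1073 and 1065 in Control cells, a log2 change of -0.61 ± 0.088 (adjusted p = 0.000402). Released libraries were thus the highest of the 3 groups for Dnmt3l and Tet2 and the lowest for Uhrf2. Dnmt1, Dnmt3a and Dnmt3b, the methyltransferases themselves, were not called, with log2 changes of -0.073, 0.07 and 0.21 and adjusted p of 0.501 for Dnmt1, 0.743 for Dnmt3a and 0.0838 for Dnmt3b. In all, 22 genes of the list were tested, 6 higher (27.3%, against 7.03% of all genes) and 2 lower (9.09%, against 5.51%). The median log2 change was 0.096. With the FPKM values 1 gene of this list was called higher and none lower, and Tet2 and Uhrf2 lost their calls.

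Imprinted genes, which are expressed from 1 parental allele, varied in both directions. Of 39 listed, 35 were tested, 7 higher (20%, against 7.03% of all genes) and 5 lower (14.3%, against 5.51%). The median log2 change was 0.11. Beside Igf2 and H19, Cdkn1c, a cyclin-dependent kinase inhibitor from a neighbouring imprinted cluster on chromosome 7, measured 70.4 and 91.4 normalised counts in Released cells, 105 and 117 in ETO cells and 36.3 and 34.2 in Control cells, a log2 change over Control of 1.16 ± 0.21 (adjusted p = 0.00183). Peg3, a zinc finger gene of the paternal allele, measured 505 and 531 in Released cells, 1307 and 1544 in ETO cells and 797 and 756 in Control cells, a log2 change of -0.58 ± 0.079 (adjusted p = 0.000234). Cdkn1c was thus above Control and Peg3 below it in both Released libraries. The row of Xist, the RNA that coats the inactive X chromosome in female cells, measured 123 and 152 in Released cells, 258 and 342 in ETO cells and 14.1 and 31.1 in Control cells, a log2 change of 2.64 ± 0.31 (adjusted p = 7.38e-05). The row of Xist was not called with the FPKM values. How strand was used in counting is not known, and reads of Xist and of its antisense partner Tsix cannot be told apart in this row. Without any 1 library the imprinted list had 4 to 6 rises and 2 falls.

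Germ cell genes, many of which DNA methylation holds silent in other cells, rose more often than they fell. Of 26 listed and tested, 9 were higher (34.6%, against 7.03% of all genes) and 3 lower (11.5%, against 5.51%). The lower ones were Dmrt1, Prdm1 and Kit, and the median log2 change of the list was 0.33. Mael, of the piRNA pathway, measured 37.2 and 44.5 normalised counts in Released cells, 41.5 and 44.0 in ETO cells and 13.2 and 11.4 in Control cells, a log2 change over Control of 1.65 ± 0.42 (adjusted p = 0.0175). Smc1b, a meiotic cohesin subunit, measured 38.6 and 42.2 in Released cells, 34.6 and 38.2 in ETO cells and 18.7 and 19.7 in Control cells, a log2 change of 1.03 ± 0.23 (adjusted p = 0.00798). Dmrt1, a transcription factor of germ cells, fell to 43.4 and 31.6 in Released cells, against 171 and 206 in ETO cells and 76.0 and 63.3 in Control cells, a log2 change over Control of -0.89 ± 0.17 (adjusted p = 0.00324). Dmrt1 was not called without Control replicate 1, without Released replicate 2 or with the FPKM values. For Mael and Smc1b no difference between Released and ETO cells was called (adjusted p = 0.902 for Mael and 0.607 for Smc1b), and their levels were low. Rhox5, of the same list, was abundant, at 3917 and 3852 in Released cells, 3178 and 3079 in ETO cells and 2753 and 2850 in Control cells. Its log2 changes were 0.47 ± 0.055 over Control (adjusted p = 6.95e-05) and 0.31 over ETO (adjusted p = 0.000172), both called. With the FPKM values 1 gene of the list was called higher and none lower. The 9 rises became 2 to 4 when 1 library was left out, 3 without Released replicate 1, 4 without Released replicate 2, 3 without Control replicate 1 and 2 without Control replicate 2.

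Classical MHC class I genes, which present peptides to T cells, rose while staying at low levels. H2-D1 measured 132 and 156 normalised counts in Released cells, 299 and 292 in ETO cells and 61.6 and 76.8 in Control cells, a log2 change over Control of 1.05 ± 0.14 (adjusted p = 0.000272). H2-K1 measured 83.3 and 89.1 in Released cells, 245 and 287 in ETO cells and 37.4 and 48.8 in Control cells, a log2 change of 0.99 ± 0.15 (adjusted p = 0.000468). Reads of these near-identical genes may have been shared. Ifitm1, an interferon-induced membrane protein, fell to 1948 and 2004 in Released cells, against 915 and 923 in ETO cells and 2751 and 2676 in Control cells. Of 21 listed interferon genes 16 were tested, with 4 higher (25%, against 7.03% of all genes) and 2 lower (12.5%, against 5.51%).

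Markers of other lineages were checked for the presence of other cell types. Of 18 listed primitive endoderm genes 13 were tested, 4 higher and 1 lower; their summed level over 18 rows was 8745 and 8547 normalised counts in Released cells, 11216 and 11624 in ETO cells and 7779 and 7391 in Control cells. Gata6, the factor that defines this lineage, measured 31.0 and 30.5 in Released cells, 129 and 125 in ETO cells and 11.0 and 14.5 in Control cells, and was called higher (adjusted p = 0.0165) but not when Control replicate 1 or either Released replicate was left out. Sox17, a later endoderm factor, did not pass the filter on low values, and Ttr is listed at 0 in all 4 libraries. Trophectoderm genes summed to 3171 and 3029 in Released cells, 7274 and 7632 in ETO cells and 2457 and 2366 in Control cells, with 2 of 10 tested of 14 listed called higher, Krt8 and Krt18, which are also members of the keratin list. Without these 2 genes the sums were 2379 and 2312 in Released cells, 2657 and 2681 in ETO cells and 2190 and 2098 in Control cells. Cdx2, a defining factor of that lineage, measured 55.8 and 43.4 in Released cells and 61.6 and 35.3 in Control cells (adjusted p = 0.947). Among 12 listed fibroblast genes 6 were tested, Vim was called lower, Dcn is listed at 0 in all 4 libraries, and the sum of the 12 rows was 4906 and 4811 in Released cells, 2807 and 2814 in ETO cells and 6566 and 6571 in Control cells. Col1a1, a defining fibroblast collagen, measured 41.3 and 32.8 in Released cells and 39.6 and 40.5 in Control cells. Nearly all of the fibroblast sum was Vim, and the other 11 rows summed to 108 and 86.3 in Released cells, 231 and 226 in ETO cells and 77.3 and 75.5 in Control cells. Of 12 listed mesoderm and primitive streak genes 10 were tested, 2 higher (Wnt3 and Snai1, neither of them without Control replicate 1 or either Released replicate) and none lower (6 and 0 at an unadjusted p under 0.05), with a median log2 change of 0.91. Their sum was 727 and 699.6 in Released cells, 789 and 779.5 in ETO cells and 435 and 512 in Control cells, while T, a defining factor of the streak, was not called, at 213 and 182 in Released cells and 172 and 193 in Control cells (adjusted p = 0.87). Of 11 listed neural genes 6 were tested, with Nes called higher (not without any 1 of the 4 libraries), and their sum was 468 and 477 in Released cells, 900.5 and 885 in ETO cells and 426 and 372 in Control cells. Thus the sums of the endoderm, trophectoderm, mesoderm and neural lists were higher in Released than in Control cells. So was that of the fibroblast list without Vim. Such sums weigh abundant genes most. In the endoderm sum of Released cells, Col4a1 and Gata6, called higher, gave 306 and 311 and 31.0 and 30.5. Lamb1, called lower, gave 264 and 237, so other rows made up most of that sum. Called higher were 30.8% of tested endoderm, 20% of trophectoderm, 20% of mesoderm and 16.7% of neural genes, against 7.03% of all genes. Called lower were 7.69% of tested endoderm and 16.7% of fibroblast genes, against 5.51% of all genes. The part of cells of other lineages in the rises of keratin and matrix genes was not tested.

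Signals that support the ground state differed slightly. Of 18 listed Wnt targets 16 were tested, 5 lower (31.25%, against 5.51% of all genes) and none higher. At an unadjusted p under 0.05, 6 were lower and 2 higher. Tnfrsf19, a receptor of the TNF family that lies in the chromosome 14 stretch, kept its call under every alternative run. It measured 388 and 422 normalised counts in Released cells, 427 and 379 in ETO cells and 634 and 593 in Control cells. Leaving out any 1 library left 1 lower gene. Of 18 tested of 20 listed formative and primed genes, 5 were higher (27.8%) and 3 lower (16.7%), among them both Lefty genes. Nodal, the ligand that they inhibit, rose by 0.36 ± 0.10 log2 units (adjusted p = 0.0289). Lysosome and autophagy genes had 6 rises (13.6%) and 6 falls (13.6%) among 44 tested of 45 listed, against 7.03% and 5.51% of all genes. Of the falls, those of Ctsb and Bnip3l lie in the chromosome 14 stretch, and outside it 4 of 42 members were lower. Atg9b, a membrane carrier of autophagy, measured 251 and 247 in Released cells, 479 and 528 in ETO cells and 94.7 and 99.6 in Control cells, a log2 change over Control of 1.35 ± 0.11 (adjusted p = 2.38e-06). Ribosomal protein genes had 11 falls and 1 rise among 76 tested of 78 listed, with a median log2 change of -0.11, and 1 or 2 of the falls were called when 1 library was left out. Of the ribosomal protein genes, 14.5% were thus lower and 1.32% higher, against 5.51% and 7.03% of all genes. Genes of DNA replication had 2 falls (4.76%) among 42 tested of 44 listed. Those of mitosis had 3 falls (6.82%) and 1 rise (2.27%) among 44. The shares of the replication and mitosis lists were near or under those of all genes, 5.51% lower and 7.03% higher. The median log2 change was -0.075 in both lists. Kat8, which encodes the histone acetyltransferase MOF, was not called, at 339 and 395 in Released cells, 566 and 529.7 in ETO cells and 372 and 383 in Control cells (adjusted p = 0.846).

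**Figure D4:**
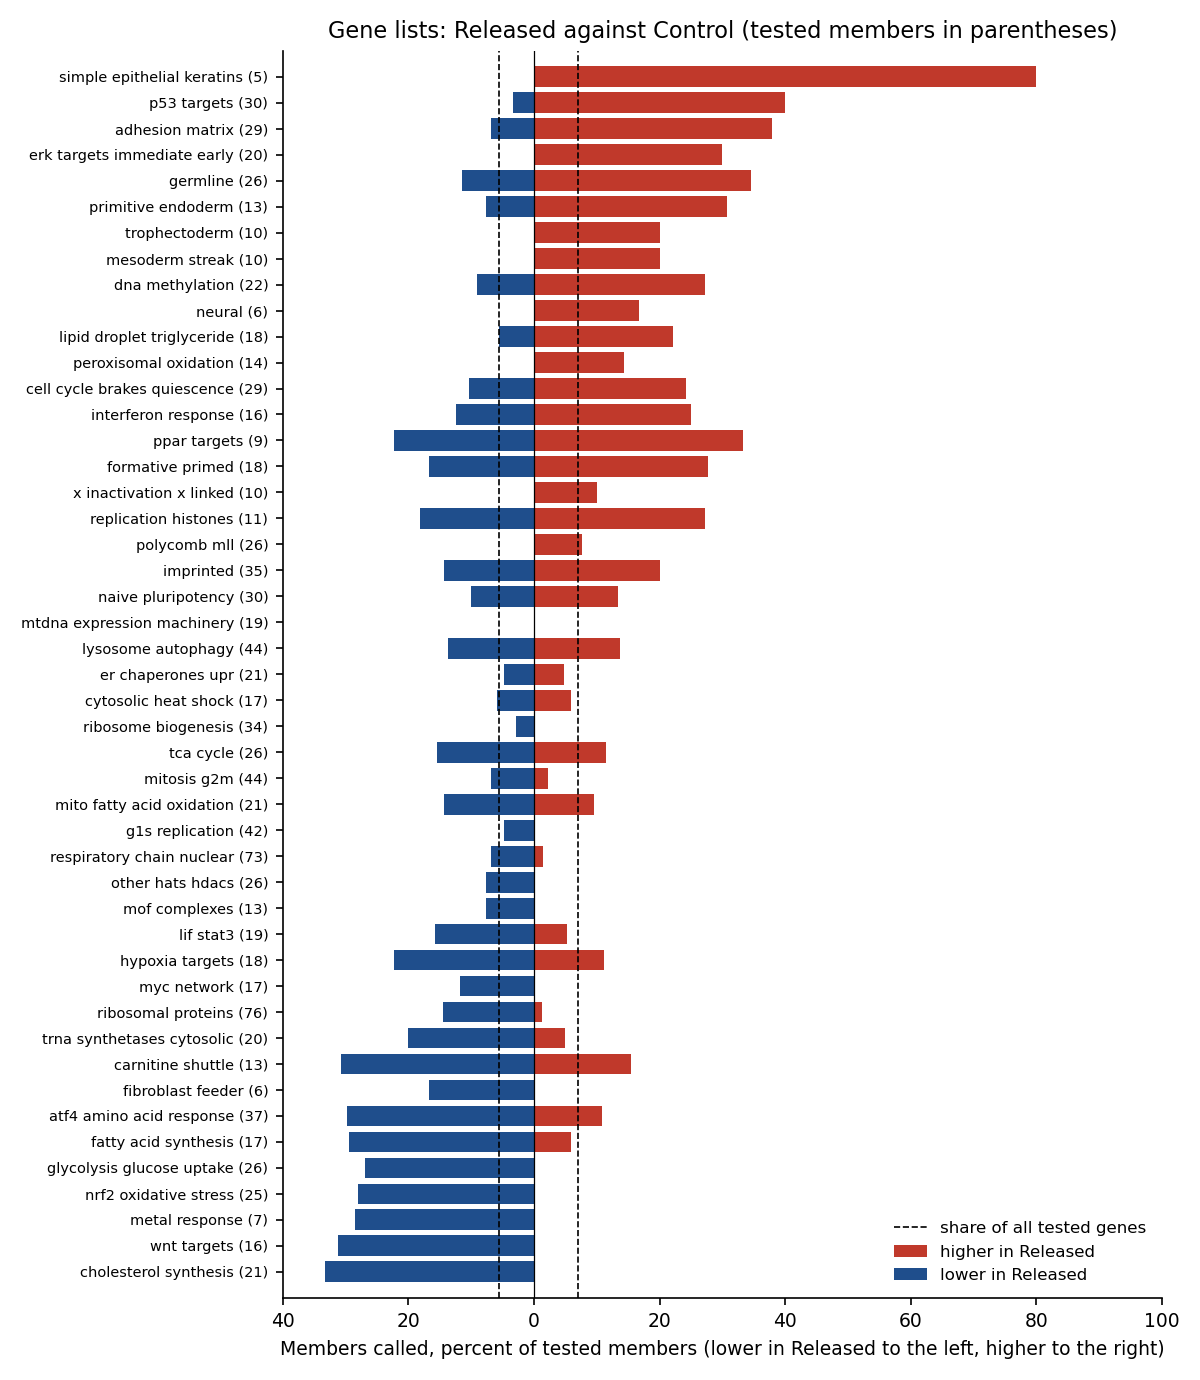
Share of the tested members of each gene list with at least 5 of them (number in parentheses) called higher in Released cells (red, to the right) or lower (blue, to the left), in percent of tested members; dashed lines mark the shares of all tested genes, 7.03% and 5.51%. Keratins (80%), p53 targets (40%) and adhesion genes (37.9%) extend farthest to the right, and cholesterol synthesis (33.3%) farthest to the left.

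The plot of the gene lists puts keratins, p53 targets and adhesion genes at its top and cholesterol synthesis, Wnt targets and the NRF2 and glycolysis lists near its foot. Chance was not assessed for these shares. Calls were not evenly spread over the genome. On chromosome 14, 78 of 480 tested genes (16.2%) were lower in Released cells, against 5.51% of all genes, and 34 were higher. The median log2 change was -0.107, at -0.111 in Released replicate 1 and -0.093 in Released replicate 2 over the Control mean. On the X chromosome 66 of 638 genes (10.3%) were lower, with a median of -0.065. Chromosome 13 followed with a median of -0.057.

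**Figure D5:**
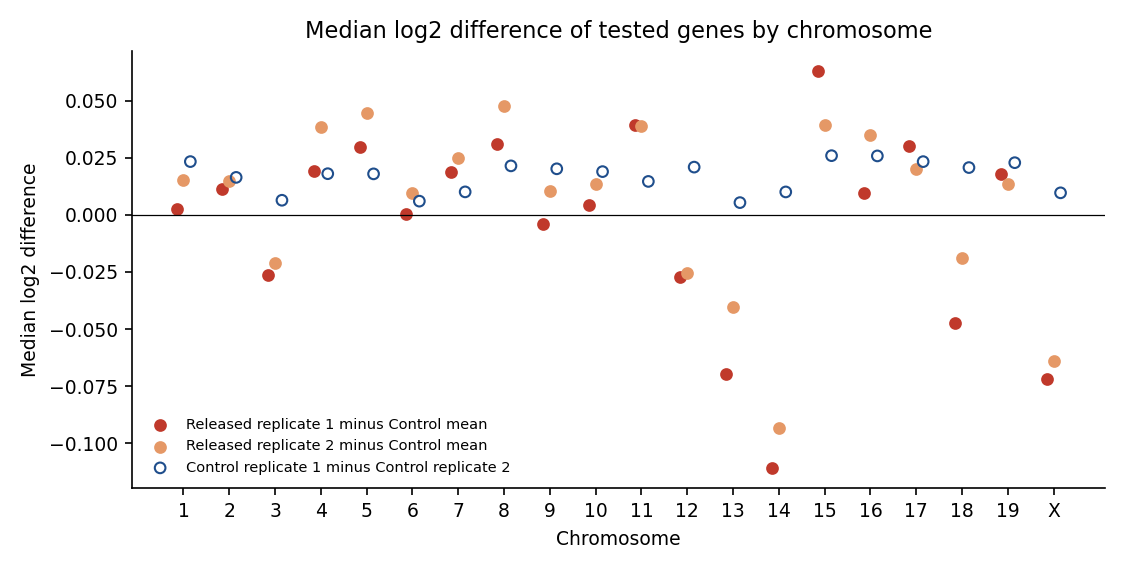
Median log2 difference of the tested genes of each chromosome, for Released replicate 1 (red) and Released replicate 2 (orange) over the mean of the Control libraries and, as open blue circles, for Control replicate 1 over Control replicate 2. Chromosome 14 lies lowest in both Released libraries, at -0.111 and -0.093, while the difference between the Control replicates there is 0.010.

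In the plot by chromosome both Released libraries are set against the same Control mean, so their profiles are not independent of each other. The lower genes of chromosome 14 lay mainly between 40 and 80 Mb (mm10), a stretch chosen after the values were seen and given as a description. There, 61 of 277 tested genes (22%) were lower and 18 higher, with a median log2 change of -0.17, against 17 of 203 lower (8.37%) in the rest of the chromosome. Of the genes with a Control mean of at least 50 in that stretch, 61 of 205 were lower, and their median level was 0.855 of Control, against 0.985 on other chromosomes. The same genes had a median log2 difference of -0.28 and -0.27 in the ETO libraries, against -0.18 and -0.17 on other chromosomes. Over all tested genes the ETO medians were uneven along the stretch, against -0.090 and -0.080 on other chromosomes. They were -0.088 and -0.123 at 40 to 50 Mb and -0.288 and -0.257 at 50 to 60 Mb. From 60 to 70 Mb they were -0.116 and -0.125, and from 70 to 80 Mb -0.072 and 0.030. Among 233 windows of 10 Mb with at least 20 tested genes, the window from 60 to 70 Mb of chromosome 14 had the lowest median, -0.22. Other windows stood apart too, with 9 of 31 genes lower (29.0%) between 30 and 40 Mb of chromosome 12, 17 of 65 higher (26.2%) between 100 and 110 Mb of chromosome 15, and the highest median, 0.20, between 150 and 160 Mb of chromosome 4. The number of chromosome copies in these cells was not measured.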

How the data were processed

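RNA of 10 libraries was sequenced single-end from TruSeq libraries, per the labels' protocols. Per the submitters' processing notes, TopHat2 2.1.1, SAMtools 1.5, deepTools and the build mm10 were used; the counting program and its use of strand are not given in the sources used here. The authors' deposited table holds, per the file headers, counts, but its signal is scaled by library: divided by a step worth 1 read, 84.4% to 85.6% of values came out whole within 0.1 read. A linear test was therefore used in place of a count model. The deposited FPKM table, FPKM per the file headers, served as an alternative. Of 50273 rows, 1314 merge several genes, with 11.5% to 14.4% of all signal; rows that share a name were added up. Positions are those of mm10.

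Values were used as log2(value + 1). Genes that reached 10 in 2 or more libraries were fitted over all 10 libraries, with 1 mean per group, in limma 3.58.1 (R 4.3.3) with an intensity trend and robust fitting, and two-sided p-values were adjusted by the Benjamini-Hochberg method. The comparisons with Control and with ETO share the Released libraries, so their changes are set side by side only. Tables and figures were made with Python 3.11.15, pandas 2.3.3, numpy 2.4.6 and matplotlib 3.10.9, and the fit was tested on simulated data.

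The comparison, its 49 gene lists (1192 entries, 1180 with a row) and the tests were chosen with earlier results of these data known. Named genes were the 12 largest rises and falls, up to 4 members per list with the smallest adjusted p, 8 further genes with the smallest adjusted p, Kat8, Cpt1a, Cpt1b, Cpt1c and Cpt2. Ldhb and Dnmt3l, of the last 8, are described with their lists. Other genes that are named, such as the pluripotency factors, Alox5, Tmprss2, T, Mdm2, Mael, Smc1b, Nodal and those given as not called, were chosen after their values were seen. Alternatives covered scaling, pseudocount, filter, unit, the libraries fitted, the replicate block and leaving out 1 library. Some genes are not reported here and entered neither the lists nor the choice of named genes.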

Additional observations from a re-analysis of the deposited data

Results flagged for a closer look

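The rows of mt-Nd6 and of the block with mt-Atp6, which entered no comparison, held signal in Released replicate 2 above the level of both Control libraries. The row of mt-Atp6 measured 218611 normalised counts in Released replicate 2, against 204211 and 194860 in Control cells, and is listed at 0 in Released replicate 1. The row of mt-Nd6 measured 15492.4 in Released replicate 2, against 13331 and 12448 in Control cells, and is likewise listed at 0 in Released replicate 1. In a fit without that replicate the log2 changes over Control were 0.13 (adjusted p = 0.718) for the row of mt-Atp6 and 0.27 (adjusted p = 0.581) for mt-Nd6. Neither was called.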

How the results depend on the processing

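With the 6 E14tg2a libraries alone 3713 genes were called (2028 higher, 1685 lower), with the 4 Released and Control libraries alone 4212 (2105 and 2107), and with the FPKM values 261 (156 and 105). Without the trend and robust fitting 1171 were called, 409 of them lower. An absolute log2 change of at least 1 left 508 (431 higher, 77 lower). Leaving out 1 library, which also leaves fewer samples and assumes that the lone sample varies like the others, left 773 to 900 called, 456 to 604 higher and 280 to 358 lower. A replicate block in the 6 E14tg2a libraries gave 3662 calls (2022 and 1640), against 3713 in the same libraries without it. No effect shared by samples of the same replicate number was seen: differences between replicates 1 and 2 correlated at 0.038 between Released and Control. This value cannot show whether samples were handled in pairs. Other scalings, pseudocounts and filters gave 1777 to 2126 calls. The median of chromosome 14 ranged from -0.0949 to -0.138, the lowest value without Control replicate 2. With the FPKM values the log2 change over ETO turned to -0.34 for Nfix and -0.48 for Bnip3, and that over Control to 0.38 for the row of Rian. When 1 library was left out, the log2 change over Control ranged from -0.16 to 0.066 for Kat8, positive without Released replicate 1, and from -0.14 to 0.051 for the row of Cpt1b, positive without Control replicate 2. The cause of these moves was not tested. Of 166 genes followed, 163 were called and 48 kept their side of the threshold and direction in every alternative. Both groups have 2 libraries, so small changes of weakly expressed genes were not detectable at this depth.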
